A study of Mus musculus with 11 samples.

Results

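The surface and lineage genes of B lymphocytes, 9 in number, were followed through the mammary gland transcriptome of mice whose fat cells lack the mTORC1 inhibitor gene Tsc1. The genes were taken by symbol (Cd79a, Cd79b, Ms4a1, Cd22, Cd37, Cr2, Fcer2a, Pax5 and Blk), with earlier results of these data known. All 9 were found among the 22196 genes of the deposited transcript tables. Each library is bulk RNA from 1 inguinal mammary gland sample, sequenced after strand-specific library preparation. The 6 knockout libraries came from Tsc1-fl/fl mice that also carried the Adipoq-Cre transgene on 1 allele (Adipoq-Cre-Tg/+). The 5 libraries called wild-type came from Tsc1-fl/fl mice without the transgene (Adipoq-Cre-+/+), so that both groups carried the floxed Tsc1 alleles and the controls were not free of engineered alleles. The Adipoq promoter drives Cre in adipocytes, and B cells are not its target. All mice were on normal chow, with glands taken 16 days after delivery and the age labelled as PND16.5. The labels do not state from how many litters or on which days the glands came, so that p-values measure only the spread between these samples.

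B cells recognise antigen through surface immunoglobulin, which signals through the paired chains CD79A and CD79B. Complement receptor CD21 lowers the threshold of that signal, CD22 raises it, and the transcription factor PAX5 holds the cell in the B lineage until it becomes a plasma cell. The lactating gland holds plasma cells that make IgA for milk, and the inguinal fat pad also encloses a lymph node, an organ of naive and follicular B cells.

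Depth ranged from 25817975 to 37894237 estimated reads per library, and the 15 epithelial and milk protein genes took between 62.9% and 72.9% of the reads. Tsc1 was at 8.31 to 11.9 CPM (counts scaled to a common library total with edgeR's TMM factors) in knockout and at 9.55 to 12.2 CPM in wild-type libraries. Its log2 ratio of knockout over wild-type was -0.09 (SE 0.11, edgeR quasi-likelihood test, adjusted p = 0.772). With scaling by library totals only it was 0.10, and the median of all tested genes was then 0.18 in place of -0.01. Counts per gene do not separate the floxed exons from the others, so that this value does not check the genotype labels. Knockout 1 stood apart from the other knockout libraries in the B cell genes, in T cell and lymph node genes and in skeletal muscle genes, whose summed level was 2130 CPM there against 2.83 to 322 CPM in the other 5. The results for the 9 genes and the counts for the other lists are therefore given with and without it.

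All 9 B cell genes were lower in knockout glands on average, with log2 fold changes from -3.94 for Pax5 to -2.26 for Cd79a and a median of -3.17. None of the 9 passed the threshold of 0.05 on the adjusted p-value, although 8 had an unadjusted p-value under 0.05 in edgeR. That count depended on Wild-Type 5. Without it the unadjusted edgeR p-value was 0.078 for Cd79a, 0.0822 for Cr2, 0.0502 for Fcer2a and 0.0526 for Pax5. Those of Cd79b, Cd22, Cd37 and Blk stayed under 0.05. DESeq2 also placed 0 of 9 past the threshold, with 7 at an unadjusted p-value under 0.05. Over the 12716 genes that passed the filter on low counts, the median log2 fold change was -0.01, 0.055% of genes passed the threshold (0.00786% as lower in knockout) and 6.08% were lower with an unadjusted p-value under 0.05. Only 4 of the 9 genes passed that filter (Cd79a, Cd79b, Cd22 and Cd37). The other 5 were read from the same fit on all 17497 genes with at least 1 read, of which 0.04% passed the threshold and 5.54% were lower with an unadjusted p-value under 0.05. The 2 groups overlapped in all 9 genes, and 0.535% of the tested genes had every knockout library below every wild-type one. In bulk tissue a smaller number of B cells and less of each transcript per B cell cannot be told apart.

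**Figure D1:**
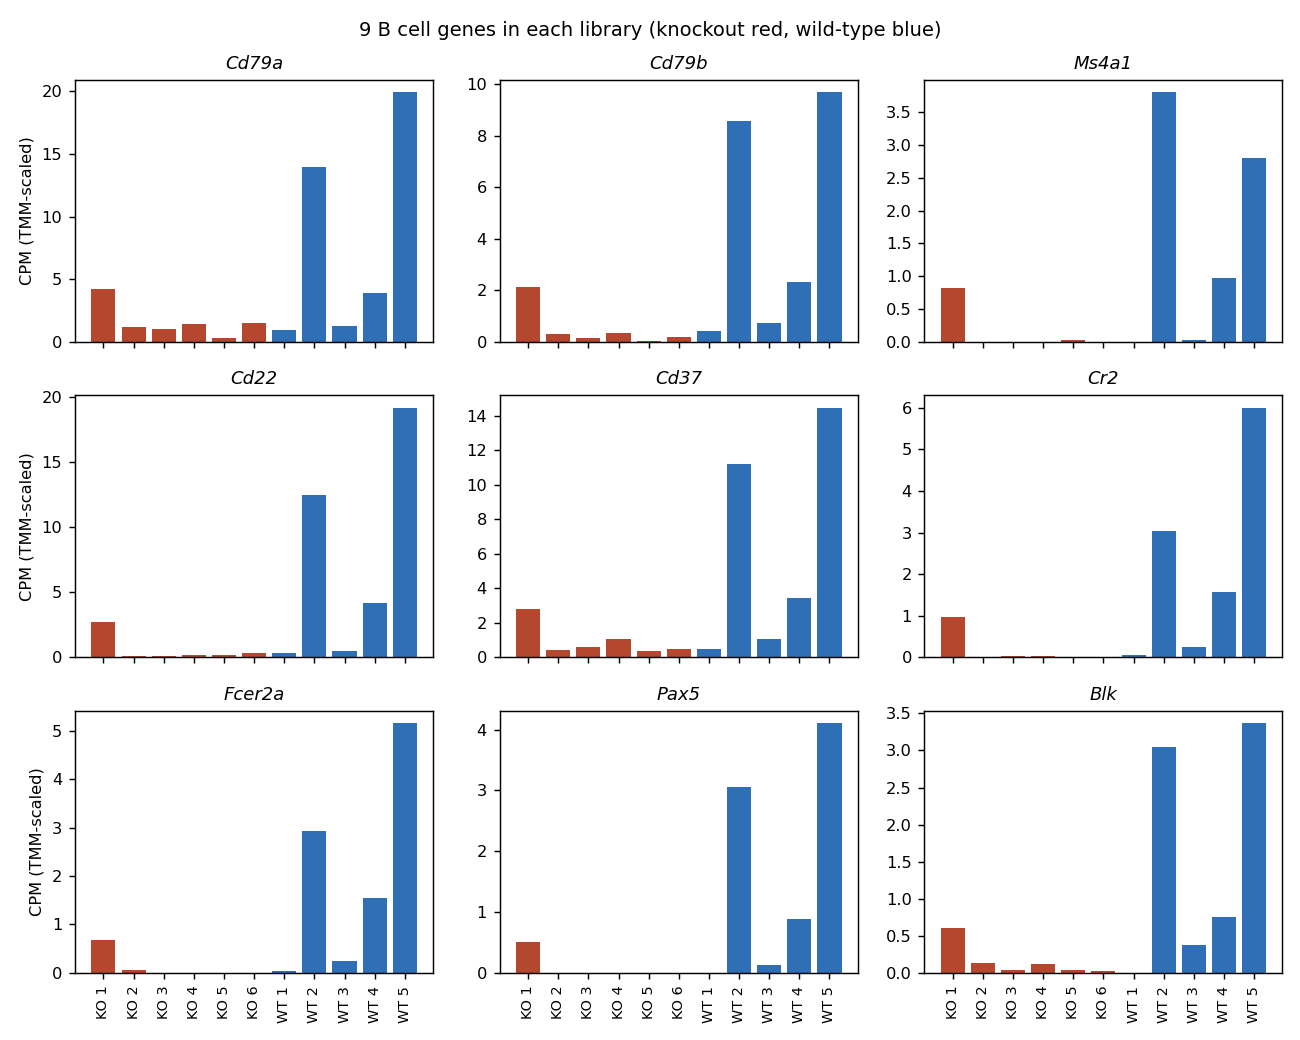
Each panel plots 1 gene, with the 11 libraries on the horizontal axis and TMM-scaled CPM on the vertical axis (linear, from 0; scales differ between panels). Knockout libraries (KO) are red and wild-type libraries (WT) blue. In all 9 panels the 4 tallest bars are Knockout 1, Wild-Type 2, Wild-Type 4 and Wild-Type 5.

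Of the signalling chains of the B cell receptor, Cd79a had the most reads of the 9 genes. Cd79a (ENSMUSG00000003379, chromosome 7, 24897381 to 24902197, GRCm38) encodes the Ig-alpha chain, whose tail carries an activation motif. Its level was 0.330 CPM at the lowest, 1.32 at the median and 4.20 CPM at the highest in knockout libraries, the last in Knockout 1. In Wild-Type 1 to 5 it was 0.946, 13.9, 1.26, 3.95 and 19.9 CPM. Wild-Type 1 and Wild-Type 3 thus lay within the range of the knockout libraries, and Wild-Type 4 lay below Knockout 1. The means were 1.62 CPM ± 1.33 (SD, n = 6) and 7.99 CPM ± 8.49 (SD, n = 5), and the log2 ratio of knockout over wild-type was -2.26 (SE 0.84, edgeR adjusted p = 0.341). Cd79b (ENSMUSG00000040592, chromosome 11, 106311341 to 106314762), the gene of its partner Ig-beta, ran from 0.0367 to 2.13 CPM in knockout libraries with a median of 0.253 CPM. Wild-Type 1 to 5 had 0.420, 8.56, 0.754, 2.34 and 9.69 CPM. The order of the libraries resembled that of Cd79a, and the groups again overlapped. The log2 ratio of knockout over wild-type was -2.92 (SE 1.00, edgeR adjusted p = 0.313).

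Blk (ENSMUSG00000014453, chromosome 14, 63372836 to 63417037) encodes a Src-family kinase that phosphorylates those chains. It had 27 reads in Knockout 1 and between 1 and 4 in each other knockout library, against 0, 73, 12, 25 and 96 reads in Wild-Type 1 to 5. On the CPM scale this was 0.0285 to 0.600, with a median of 0.0785, in knockout libraries, and 0, 3.05, 0.377, 0.759 and 3.37 in Wild-Type 1 to 5. The one library without a read was a wild-type one, and the groups overlapped. The log2 ratio of knockout over wild-type was -3.09 (SE 1.06, edgeR fit without the filter, adjusted p = 0.386). It was -2.33 in limma on the authors' normalized values.

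Among the genes that set the strength of the receptor signal, Cd22 (ENSMUSG00000030577, chromosome 7, 30865402 to 30880342) encodes a sialic acid-binding inhibitory receptor of B cells. Knockout libraries had from 0.0991 to 2.75 CPM with a median of 0.215 CPM, and Wild-Type 1 to 5 had 0.350, 12.4, 0.503, 4.19 and 19.2 CPM. Knockout 1 lay above Wild-Type 1 and Wild-Type 3. The other 5 knockout libraries, at up to 0.313 CPM, lay below all wild-type libraries on the CPM scale only. Knockout 6 had 11 reads against 10 in Wild-Type 1, and by TPM it lay above Wild-Type 1 (0.0493 against 0.0436). The means were 0.622 CPM ± 1.05 (SD, n = 6) and 7.33 CPM ± 8.24 (SD, n = 5), with a log2 ratio of knockout over wild-type of -3.44 (SE 1.17, edgeR adjusted p = 0.313). Cr2 (ENSMUSG00000026616, chromosome 1, 195136811 to 195176716) encodes complement receptors CD21 and CD35, which follicular dendritic cells carry as well as B cells. It had 44 reads in Knockout 1 and 2 reads in the other 5 knockout libraries together, and Wild-Type 1 to 5 had 2, 73, 8, 52 and 171 reads. This corresponded to 0.977 CPM in Knockout 1, at most 0.0330 CPM in the other knockout libraries, and 0.0700, 3.05, 0.251, 1.58 and 6.00 CPM in Wild-Type 1 to 5. Knockout 1 again lay among the wild-type values. The log2 ratio of knockout over wild-type was -3.43 (SE 1.32, edgeR fit without the filter, adjusted p = 0.412). It was -4.62 with offsets for transcript length.

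The genes of the other surface proteins were again highest in Knockout 1 and Wild-Type 2, 4 and 5. Ms4a1 (ENSMUSG00000024673, chromosome 19, 11249675 to 11266241) encodes CD20, which mature B cells carry and plasma cells lose. It had 37 reads in Knockout 1, 1 in Knockout 5 and 0 in the other 4 knockout libraries, and 0, 91, 1, 32 and 80 reads in Wild-Type 1 to 5. On the CPM scale these were 0.822 in Knockout 1, 0.0367 in Knockout 5, and 0, 3.80, 0.0314, 0.972 and 2.81 in Wild-Type 1 to 5. It was the only one of the 9 whose highest level was in Wild-Type 2 and not in Wild-Type 5. Its log2 ratio of knockout over wild-type was -3.17 (SE 1.44, edgeR fit without the filter, unadjusted p = 0.0531 and adjusted p = 0.469). Fcer2a (ENSMUSG00000005540, chromosome 8, 3681737 to 3694175), the gene of the low-affinity IgE receptor CD23 of follicular B cells, had 31 reads in Knockout 1, 2 in Knockout 2 and 0 in the other 4. Wild-Type 1 to 5 had 1, 70, 8, 51 and 147 reads, or 0.0350, 2.92, 0.251, 1.55 and 5.16 CPM. Its log2 ratio of knockout over wild-type was -3.73 (SE 1.30, edgeR fit without the filter, adjusted p = 0.393).

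Cd37 (ENSMUSG00000030798, chromosome 7, 45233632 to 45239115) encodes a tetraspanin of B cells that other leukocytes carry at lower levels. Knockout libraries ran from 0.367 to 2.80 CPM with a median of 0.539 CPM, and Wild-Type 1 to 5 had 0.490, 11.2, 1.07, 3.43 and 14.5 CPM. Wild-Type 1 and Wild-Type 3 lay within the range of Knockout 2 to 6, at 0.367 to 1.08 CPM. The log2 ratio of knockout over wild-type was -2.62 (SE 0.87, edgeR adjusted p = 0.313). The protein-coding gene Tead2 overlaps it on the opposite strand, and whether counting used the strand is not given in the sources used here.

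Pax5 (ENSMUSG00000014030, chromosome 4, 44524757 to 44710487), the transcription factor of B cell identity, was at 0 in 6 libraries, more than any other of the 9. It had 23 reads in Knockout 1 and 0 in Knockout 2 to 6, and 0, 73, 4, 29 and 117 reads in Wild-Type 1 to 5. At the depth of Knockout 2 to 6 a count of 0 allows up to 3 counts, which is 0.0854 to 0.110 CPM, so that its absence there was not shown. With 0.511 CPM in Knockout 1 and 0, 3.05, 0.126, 0.881 and 4.11 CPM in Wild-Type 1 to 5, the groups overlapped. The log2 ratio of knockout over wild-type was -3.94 (SE 1.41, edgeR fit without the filter, adjusted p = 0.397). Such limits cover counting error only.

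Knockout 1 carried most of the knockout reads of these genes. Without it the log2 fold changes were -2.82 ± 0.87 for Cd79a, -4.28 ± 0.98 for Cd79b, -5.17 ± 1.19 for Cd22, -3.33 ± 0.90 for Cd37 and -4.31 ± 1.15 for Blk (SE, edgeR). Their adjusted p-values were 0.367, 0.307, 0.314, 0.361 and 0.359, so that none passed. The other 4 genes had 1 read (Ms4a1), 2 reads (Cr2), 2 reads (Fcer2a) and 0 reads (Pax5) in the remaining 5 knockout libraries together, against 204, 306, 277 and 223 reads in the 5 wild-type libraries. With each of those 5 knockout libraries at its limit of 3 counts, Pax5 was at least 16.8-fold lower in them than in the wild-type mean, and at least 10.4-fold without Wild-Type 5. These bounds cover counting error and not the spread between mice. Wild-type libraries themselves ran from 0 CPM (Wild-Type 1) to 4.11 CPM (Wild-Type 5). Leaving out Wild-Type 5 moved the values the other way, to -1.59 for Cd79a, -2.40 for Cd79b, -2.70 for Cd22, -2.02 for Cd37 and -2.56 for Blk, and to -2.63 for Cr2, -3.01 for Fcer2a and -3.27 for Pax5 (log2 scale, edgeR). Ms4a1 moved most in that direction without Wild-Type 2, to -2.53.

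**Figure D2:**
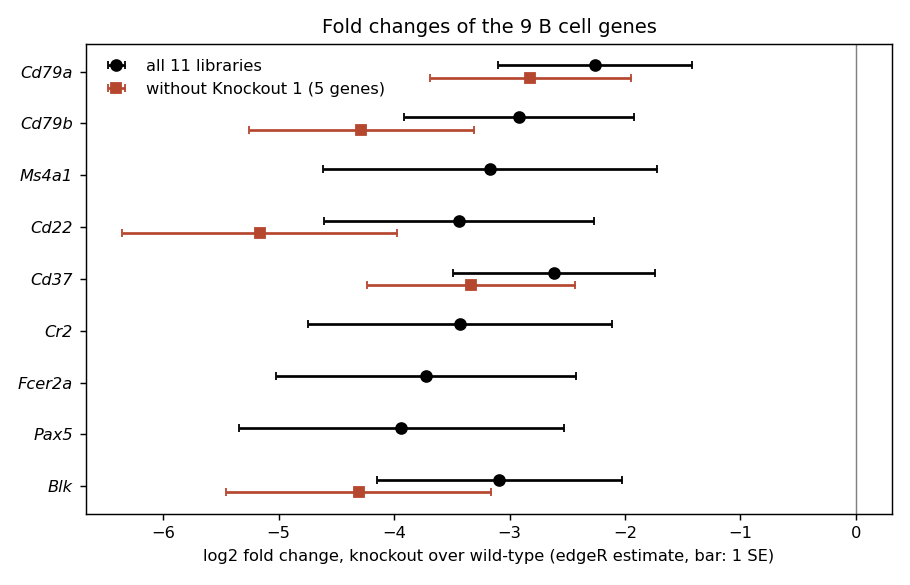
Log2 fold changes of knockout over wild-type for the 9 genes, with bars of 1 SE from edgeR. Black circles use all 11 libraries, from -3.94 (Pax5) to -2.26 (Cd79a), and red squares leave out Knockout 1 for the 5 genes with more than 10 reads in the other knockout libraries.

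The same 4 libraries, Knockout 1, Wild-Type 2, Wild-Type 4 and Wild-Type 5, were the highest for all 9 genes, and among 12716 tested genes 259 (2.04%) had these same 4 highest. The authors' deposited table of normalized values gave the same 4 for all 9. The gap below the 4 was narrowest for Blk, whose lowest value among the 4 was 1.59-fold above the highest of the other 7 libraries, and widest for Ms4a1 at 22.4-fold. Wild-Type 5 was highest in 8 genes and Wild-Type 2 in the remaining one. Wild-Type 3 also had reads for all 9 genes, whereas Wild-Type 1 and each of Knockout 2 to 6 had no read for 3 or 4 of them. The spread within groups was wide. The within-group SD of log2 CPM was 1.53 for Cd79a, 1.56 for Cd37, 1.70 for Cd79b and 2.02 for Cd22, against a median of 0.23 over all tested genes.

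Levels of different genes are compared here only as TPM, which accounts for transcript length. The summed TPM of the 9 genes was 12.4 in Knockout 1 and 0.724 to 2.37 in the other knockout libraries. It was 2.05, 34.8, 2.40, 12.2 and 52.6 TPM in Wild-Type 1 to 5. Wild-Type 1 lay within the range of Knockout 2 to 6 and Wild-Type 3 just above it, and Knockout 1 lay beside Wild-Type 4. The knockout mean was 0.170 of the wild-type mean, 0.0857 of it without Knockout 1 and 0.276 of it without Wild-Type 5. Cd79a, Cd37 and Cd79b were the 3 most abundant of the 9 in each of the 11 libraries, with mean levels of 4.38, 2.74 and 1.71 TPM over all libraries. The order of the other 6 differed between libraries. By TPM Blk ranked 8 or 9 in the 4 high libraries and between 4 and 6 in Knockout 2 to 6, on 1 to 4 reads each. It ranked 5 in Wild-Type 3, and 8 in Wild-Type 1, where it had 0 reads and was tied with other genes.

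**Figure D3:**
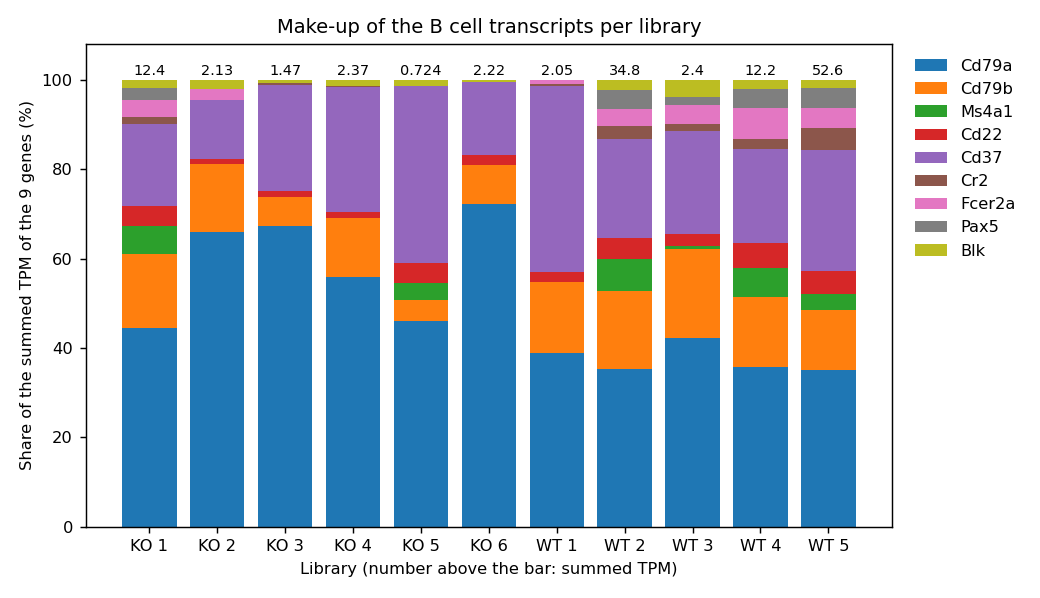
Stacked bars give each gene's share, in percent, of the summed TPM of the 9 genes in each library, and the number above each bar is that summed TPM. Ms4a1, Pax5, Cr2 and Fcer2a take visible shares in Knockout 1, Wild-Type 2, Wild-Type 4 and Wild-Type 5. Cd79a, Cd37 and Cd79b make up 90.3% to 97.7% of Knockout 2 to 6, 96.4% of Wild-Type 1 and 85.2% of Wild-Type 3. Ms4a1 also takes 3.67% of Knockout 5, on 1 read.

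The make-up of the signal differed between libraries. Cd79a, Cd37 and Cd79b together held 79.5% of the summed TPM in Knockout 1 and 74.9%, 72.5% and 75.5% in Wild-Type 2, 4 and 5. They held 85.2% in Wild-Type 3, 96.4% in Wild-Type 1 and 90.3% to 97.7% in Knockout 2 to 6. These last shares rest on 28 to 107 reads over the 9 genes, against 647 to 2412 reads in the 4 high libraries. The TPM ratio of Cd79a to Cd79b was 2.02 to 2.66 in the wild-type libraries and 2.68 in Knockout 1, and 4.24 to 10.1 in Knockout 2 to 6, where Cd79b had only 1 to 12 reads. Cd79a stays expressed in many plasma cells, whereas Ms4a1 and Pax5 do not. Igha, the heavy chain gene of IgA and a product of plasma cells, was chosen after its values were seen. It was at 155 to 1628 TPM over the knockouts and 484 to 1803 TPM over the wild-types. Which cells the reads of Cd79a came from was not tested.

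Transcript models, which the quantifier separates by estimate, left 5 of the 9 genes with all or nearly all reads on 1 model. Cd79a, Ms4a1 and Blk each had 1 listed transcript, and Cd22 (97.8% of its reads on Cd22-201) and Fcer2a (94.2% on Fcer2a-201) were read mostly from 1. Reads of Cd79b were divided between Cd79b-202 (54.0%) and Cd79b-201 (46.0%), and Cd37-201 held 41.0% of the reads of Cd37. The model with the most Cr2 reads was Cr2-204, at 42.2% of 352 reads, which the annotation marks as a target of nonsense-mediated decay, and for Pax5 it was Pax5-201, at 46.0% of 246 reads. With at most 171 reads of either gene in a library, these splits were not compared between genotypes.

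Promoters are shown because the 9 genes shared the 4 libraries in which they were highest. RefSeq windows on GRCm38.p6, which run from before to just after an annotated start, were found for 6 genes in 8 windows (Cr2, Pax5, Cd79a, Cd22, Cd37 and 3 windows of Fcer2a), and not for Cd79b, Ms4a1 and Blk. Both strands were searched for 5 motifs of factors that act in B cells. The EBF1-type motif CCCNNGGG occurred in Cd22, 48 bases before the start, and in 13.7% of all 32851 windows. A PU.1-type motif, GAGGAAGT, occurred in Cd37 (3.20% of all windows), and an ETS-type motif, GGGGAANT, in the upstream start of Fcer2a (4.69%). The octamer ATGCAAAT occurred in 0 of the 8 windows and in 1.74% of all windows. The E box CANNTG was in all 8 and in 72.3% of all windows. A match is a match of letters and shows no binding. The 120 bases before the start are given 5′ to 3′ on the strand of the gene, with every match to one of the 5 motifs in capitals, for Cd79a as the most abundant member (chr7:24897377-24897496, plus strand) and for the 3 genes with a match other than an E box (Cd22, chr7:30879029-30879148; Cd37, chr7:45238840-45238959; Fcer2a, chr8:3694175-3694294; all minus strand).
Cd79a: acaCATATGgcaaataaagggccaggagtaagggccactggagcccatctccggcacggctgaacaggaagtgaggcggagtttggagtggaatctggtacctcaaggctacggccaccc
Cd22: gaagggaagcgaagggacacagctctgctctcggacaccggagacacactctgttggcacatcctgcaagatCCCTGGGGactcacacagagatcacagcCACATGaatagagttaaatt
Cd37: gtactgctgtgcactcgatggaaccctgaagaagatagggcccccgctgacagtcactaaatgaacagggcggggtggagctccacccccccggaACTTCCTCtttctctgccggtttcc
Fcer2a: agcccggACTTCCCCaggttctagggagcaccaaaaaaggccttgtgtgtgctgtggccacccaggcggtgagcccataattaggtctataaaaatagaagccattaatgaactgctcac

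The rest of the B cell programme was read from lists of genes that are not among the 9, and the smallest p-value of a list is taken among its genes that passed the filter on low counts. Of 18 genes of receptor signalling 17 were tested, and 15 had a negative and 2 a positive log2 fold change, with a median of -0.61 (11 negative and 6 positive with scaling by library totals only). None passed the adjusted threshold, while 8 were lower and 1 higher at an unadjusted p-value under 0.05, beside 6.08% of all tested genes lower in this way. The smallest p-value was that of Ptpn6, the gene of the phosphatase SHP-1 that CD22 recruits, at 9.93 CPM ± 1.74 over the knockouts (SD, n = 6) against 18.6 CPM ± 8.30 over the wild-types (SD, n = 5) (log2 ratio -0.90, SE 0.25; edgeR adjusted p = 0.269). DESeq2 placed Ptpn6 past the threshold, with an adjusted p of 0.0345. The most abundant gene of the list by TPM was Cd81, a tetraspanin that most cells express, at 93.8 TPM ± 21.3 (SD, n = 6) and 78.3 TPM ± 9.77 (SD, n = 5). In 10 of the 18 genes the same 4 libraries were highest as for the 9, beside 2.04% of all tested genes.

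Of 16 other B cell surface genes 9 were tested, all with negative log2 fold changes (median -0.81; 7 of 9 with scaling by library totals only). None passed, and 5 had an unadjusted p-value under 0.05, beside 6.08% of all tested genes lower in this way. Cd72, an inhibitory coreceptor, had the smallest p-value, with 4.88 CPM ± 0.923 over the knockouts (SD, n = 6) against 8.58 CPM ± 4.03 over the wild-types (SD, n = 5) (log2 ratio -0.81, SE 0.27; edgeR adjusted p = 0.300). Cd24a, which epithelium also expresses, was the most abundant, at 330 TPM ± 43.2 (SD, n = 6) and 279 TPM ± 35.2 (SD, n = 5). In 11 of the 16 genes the same 4 libraries were highest as for the 9.

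Among 14 B lineage transcription factors and cofactors 11 were tested, 10 with a negative and 1 with a positive log2 fold change (median -0.54; 9 and 2 with scaling by library totals only). None passed, and 4 were lower at an unadjusted p-value under 0.05, beside 6.08% of all tested genes. Spi1, the gene of PU.1, had the smallest p-value of the 11 (log2 ratio -0.54, SE 0.22; edgeR adjusted p = 0.360), and Bcl6 was the most abundant, at 6.18 TPM ± 2.68 (SD, n = 6) and 3.91 TPM ± 1.44 (SD, n = 5). In 5 of the 14 genes the same 4 libraries were highest as for the 9. Spib and Ebf1, chosen after their values were seen, differed in pattern. Spib had 14 reads in Knockout 1, 1 in the other knockout libraries together and 0, 51, 1, 20 and 46 in Wild-Type 1 to 5. Ebf1, which adipocytes and stromal cells also express, was at 1.32 to 2.42 CPM over the knockouts and 1.16 to 2.60 CPM over the wild-types.

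Markers of other cell types were measured beside the B cell genes, and their part in the result was not tested. The 8 genes found of the lymph node stroma and follicular dendritic cell list summed to 2.83 to 10.4 CPM over the knockouts and 3.33 to 57.9 CPM over the wild-types, with the highest sums in the same 4 libraries. Gene by gene, 4 of the 8 had those libraries as their highest (Ccl21a, Ltb and, named after their values were seen, Ccl19 and Cxcl13), and the other 4 did not. Its most abundant gene was Ccl21a, a chemokine of lymph node stroma, with 120 reads in Knockout 1, 0 to 12 in each other knockout library and 3, 337, 11, 157 and 640 in Wild-Type 1 to 5. Ltb, a lymphotoxin chain, had the smallest p-value (log2 ratio -2.84, SE 0.89; edgeR adjusted p = 0.294). Its log2 ratio was -3.68 without Knockout 1 and -2.16 without Wild-Type 5, with edgeR adjusted p-values of 0.339 and 0.400. Of the 8 genes 4 were tested, all 4 with negative values (median -1.55; 3 of 4 with scaling by library totals only), 0 of them past the threshold. At an unadjusted p-value under 0.05, 2 of the 4 were lower. The 14 T cell genes summed to 3.04 to 14.3 CPM over the knockouts and 3.22 to 51.3 CPM over the wild-types, again highest in the same 4. In 12 of the 14 genes these 4 libraries were the highest. In 8 tested T cell genes the log2 fold changes were negative (median -1.42) and none passed. Of these 8 genes 4 had an unadjusted p-value under 0.05, beside 6.08% of all tested genes lower in this way. Il7r, the receptor of interleukin-7, had the smallest p-value among them (log2 ratio -1.43, SE 0.54; edgeR adjusted p = 0.341), and Cd3g was the most abundant, at 0.959 TPM ± 0.755 (SD, n = 6) and 2.07 TPM ± 2.03 (SD, n = 5).

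**Figure D4:**
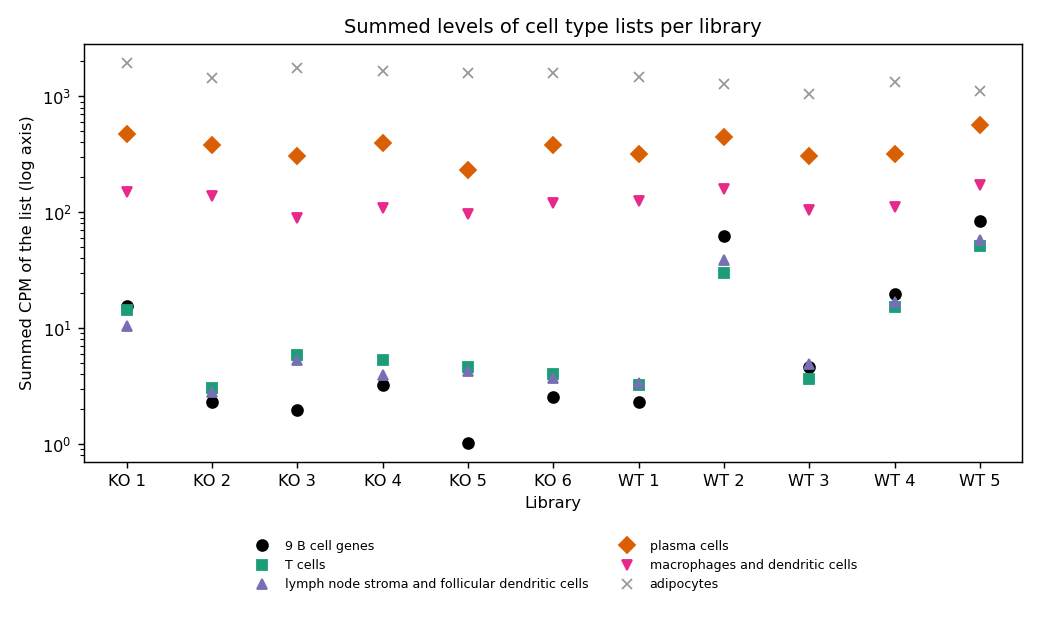
Summed TMM-scaled CPM of 6 gene lists (log vertical axis) in each of the 11 libraries. The 9 B cell genes (1.03 to 84.7 CPM), the T cell list and the lymph node list are highest in Knockout 1, Wild-Type 2, Wild-Type 4 and Wild-Type 5, and the summed plasma cell, macrophage and adipocyte lists span narrower ranges.

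The 9 plasma cell genes summed to 233 to 474 CPM over the knockouts and 303 to 566 CPM over the wild-types. That sum includes Xbp1 (94.5 to 144 CPM over the 11 libraries) and Txndc5 (76.2 to 108.1 CPM), which other secretory cells also express. Mzb1, a plasma cell chaperone, ran from 0.918 to 11.03 CPM and Jchain from 21.9 to 338 CPM, both lowest in Knockout 5. These 3 genes, Xbp1, Txndc5 and Mzb1, were chosen after their values were seen. Of the 9 plasma cell genes, 6 had negative and 3 positive log2 fold changes (median -0.40), and none passed. Derl3, of the endoplasmic reticulum, had the smallest p-value (log2 ratio -0.60, SE 0.22; edgeR adjusted p = 0.340), and Jchain, which joins IgA chains, was the most abundant at 291 TPM ± 171 (SD, n = 6) and 316 TPM ± 195 (SD, n = 5). In 0 of the 9 plasma cell genes were the 4 libraries highest that were so for the B cell genes. Among all tested genes this share was 2.04%, so that 0 of 9 does not set the list apart. The summed plasma cell list had 3 of these 4 libraries among its 4 highest. Of 11 immunoglobulin genes, 10 had negative and 1 a positive value (median -0.92), and none passed. At an unadjusted p-value under 0.05, 3 were lower, beside 6.08% of all tested genes. They were Ighg3 and, named after their values were seen, Ighm and Ighd. Ighd, carried mainly by naive B cells, had 95 reads in Knockout 1, 1 to 5 in each other knockout library and 4, 162, 14, 105 and 395 in Wild-Type 1 to 5 (log2 ratio -3.36, SE 1.24; edgeR adjusted p = 0.341). Ighg3 had the smallest p-value (log2 ratio -3.70, SE 1.32; edgeR adjusted p = 0.333), with 531 reads in Wild-Type 2 and 2 to 82 in the other wild-type libraries. Without Wild-Type 2 its log2 ratio was -1.53 (edgeR adjusted p = 0.722), and without Knockout 1 it was -4.87 (edgeR adjusted p = 0.366). The light chain gene Igkc was the most abundant, at 2000 TPM ± 1155 (SD, n = 6) and 2241 TPM ± 1263 (SD, n = 5).

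Other compartments of the gland were measured in the same way. Macrophage and dendritic cell genes summed to 88.9 to 150 CPM over the knockouts and 104 to 171 CPM over the wild-types, with a median log2 fold change of -0.05 over 9 tested genes (0.16 with scaling by library totals only) and none past the threshold. Lyz2, the macrophage lysozyme, had the smallest p-value of the 9 (edgeR adjusted p = 0.369) and was the most abundant, at 31.4 TPM ± 19.0 (SD, n = 6) and 49.6 TPM ± 26.4 (SD, n = 5). Adipocyte genes, 8 of 10 with positive log2 fold changes (median 0.28), summed to 1454 to 1941 CPM over the knockouts and 1047 to 1483 CPM over the wild-types. None passed in edgeR, while 5 were higher at an unadjusted p-value under 0.05, beside 12.4% of all tested genes in either direction. Cfd, the adipokine adipsin, had the smallest p-value (log2 ratio 0.78, SE 0.18; edgeR adjusted p = 0.218, DESeq2 adjusted p = 0.00494), and Fabp4 was the most abundant, at 739 TPM ± 116 (SD, n = 6) and 495 TPM ± 113 (SD, n = 5). Among the epithelial and milk protein genes 14 of 15 had negative values (median -0.25; 10 of 15 with scaling by library totals only) and none passed in edgeR. Lao1, a milk L-amino acid oxidase, had the smallest p-value (log2 ratio -0.55, SE 0.15; edgeR adjusted p = 0.263, DESeq2 adjusted p = 0.0498). Wap, a whey protein, was the most abundant at 230460 TPM ± 18165 (SD, n = 6) and 246733 TPM ± 13752 (SD, n = 5). All 8 skeletal muscle genes had positive values (median 2.21; smallest p-value for Mb, edgeR adjusted p = 0.457), but without Knockout 1 there were 4 positive and 4 negative (median 0.05). Over all libraries Acta1 was the most abundant at 42.8 TPM ± 86.5 (SD, n = 6) and 5.28 TPM ± 6.55 (SD, n = 5). Of 5 blood genes 4 had negative values (median -0.05; 0 of 5, median 0.12, with scaling by library totals only; smallest p-value for Hba-a1, edgeR adjusted p = 0.847), with Hbb-bs the most abundant at 358 TPM ± 93.6 (SD, n = 6) and 325 TPM ± 77.8 (SD, n = 5). Hemoglobin and immunoglobulin genes have close copies, between which the quantifier divides reads by estimate.

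Knockout 1 was left out for the lists, a step added to them after the data were seen, and no tested gene of these lists then passed the threshold either. No wild-type library was left out for the list medians, so that this step is 1-sided. In some lists fewer genes passed the filter then. The median log2 fold change was then -0.71 for receptor signalling (15 of 16 tested genes negative), -0.68 for other surface genes (6 of 7), -0.32 for transcription factors (9 of 10) and -0.96 for immunoglobulin genes (10 of 10). It was -0.56 for plasma cells (7 of 9), -1.77 for T cells (7 of 7), -1.97 for lymph node stroma (3 of 4) and -0.12 for macrophages (8 of 9). Milk and epithelial genes (-0.21, 14 of 15), adipocyte genes (0.21, 2 of 10) and blood genes (-0.01, 3 of 5) kept the sign of their medians. At an unadjusted edgeR p-value under 0.05, the lower genes then numbered 8 in receptor signalling, 3 in other surface genes and 3 in transcription factors. There were 3 in immunoglobulin genes, 2 in plasma cells, 6 in T cells and 2 in lymph node stroma. Among adipocyte genes 1 was lower and 4 were higher. The share over all tested genes is not given for this fit.

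The tested genes whose levels followed the B cell genes most closely were found by the mean absolute difference, over the 11 libraries, between their centred log2 CPM and the mean profile of Cd79a, Cd79b, Cd22 and Cd37. The 8 closest named genes were Il4i1, Cd2, Ltb, Timd4, Fcrla, Dnah8, Ubd and Lck, with differences of 0.45 (Il4i1) to 0.63 (Lck). The 4 profile genes themselves were at 0.28 to 0.54, and the median over all 12716 tested genes was 1.69. The list holds genes of T cells (Cd2, Lck), of B cells (Fcrla), and a lymphotoxin chain (Ltb). Il4i1, an amino acid oxidase of lymphoid and myeloid cells, was at 0.462 to 2.73 CPM in knockout libraries and 0.946, 9.02, 1.26, 4.40 and 11.4 CPM in Wild-Type 1 to 5 (log2 fold change -2.43; edgeR adjusted p = 0.274). None of the 8 passed the threshold, with adjusted p-values from 0.230 (Timd4) to 0.401 (Ubd). Timd4, a phosphatidylserine receptor, was the one with the largest fold change of the 8 (log2 -3.52).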

How the data were processed

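RNA-seq of 11 mammary gland samples was analysed from the authors' files. Per the submitters' processing notes, Salmon 1.3.0, DESeq2 1.28.1 and build GRCm38.p6 were used; index and options are not given in the sources used here. Per the file headers, each deposited transcript table holds estimated counts and TPM, with transcript lengths. A deposited gene table, named by the authors as normalized with DESeq2, was treated as a signal.

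Estimated counts were summed per gene with GENCODE M21 (GRCm38) and rounded. The 752 unmatched transcripts, of 58204, were left out. The main test was edgeR 4.0.16 (filterByExpr, TMM, robust quasi-likelihood F test, genotype only, Benjamini-Hochberg over all genes tested, threshold 0.05), tested on simulated data. The SE was derived from the F statistic. Genes removed by the filter were read from the fit without it. Log2 CPM used a prior count of 2. Alternatives were DESeq2 1.42.0, other scalings and filters, length offsets, a replicate block, limma 3.58.1 on log2(value + 1) of the authors' table, and each library left out.

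The 9 genes and all lists were chosen with earlier results of these data known. Named were Tsc1, the 9 genes, in each list the gene past the filter with the smallest edgeR p-value and the one with the highest TPM, the 8 genes closest in profile and each gene's main transcript; others are said to be chosen after their values were seen. Of 9 lymph node genes, 8 were matched. One gene of the receptor signalling list is not reported here by name.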

Additional observations from a re-analysis of the deposited data

Results flagged for a closer look

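A search for libraries set apart from their group covered 44 sets of values (the 9 genes, their summed TPM and 12 lists, in each genotype). In 13 sets a library stood apart by the gap to its nearest neighbour (Dixon's ratio). A rate of 1 in 20 gives about 2.2, but that rate holds for normally distributed values. Unlogged CPM near 0 is not so distributed, and 2.2 is therefore not its chance rate. For Pax5, with the other knockouts all at 0, the ratio is 1 whatever the value. The 9 genes and the related lists are not independent of each other. In all 13 the library was Knockout 1. It had 4.20 CPM of Cd79a (others 0.330 to 1.54), 2.13 CPM of Cd79b (others 0.0367 to 0.361), 0.822 CPM of Ms4a1 (others 0 to 0.0367) and 2.75 CPM of Cd22 (others 0.0991 to 0.313). It had 2.80 CPM of Cd37 (others 0.367 to 1.08), 0.977 CPM of Cr2 (others 0 to 0.0330), 0.688 CPM of Fcer2a (others 0 to 0.0682), 0.511 CPM of Pax5 (others all 0) and 0.600 CPM of Blk (others 0.0285 to 0.136). The summed TPM of the 9 genes was 12.4 there (others 0.724 to 2.37). The T cell list summed to 14.3 CPM (others 3.04 to 5.81), the lymph node list to 10.4 CPM (others 2.83 to 5.28) and the skeletal muscle list to 2130 CPM (others 2.83 to 322).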

How the results depend on the processing

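The direction was lower in knockout, and the adjusted p-value above 0.05, in all 182 values of the 9 genes under the alternatives run, with adjusted p-values from 0.0892 (Cd22, DESeq2) to 0.847. Apart from leaving out a library, fold changes moved by over 1.5 times for 3 genes: Cr2 (log2 -4.62 with transcript length offsets, -4.02 with the replicate block, -4.08 in limma on the authors' values), Ms4a1 (log2 -3.89 with the replicate block) and Blk (log2 -2.33 in limma). The count of B cell genes past the threshold was 0 in each alternative, including the 11 that left out 1 library and the replicate block; with CPM above 1 in at least 5 libraries only 2 of the 9 were tested. The count over all genes was 7 and moved to 146 in DESeq2 and to 0 with the replicate block, and ran from 0 (without Knockout 3 or Knockout 6) to 28 (without Knockout 2) when 1 library was left out. Same-numbered libraries correlated over 0.1 in their deviations for 1 of 5 numbers, and 1 of 5 knockout libraries matched its own number best, so that the numbers were not taken as pairs. Alternatives for Tsc1 and for genes of the other lists were added after the data were seen. With library totals only, Tsc1 changed sign to 0.10 and Hba-a1 to 0.0341, as the median of all tested genes moved from -0.01 to 0.18, and Hba-a1 ran from -0.26 (without Knockout 4) to 0.0063 (without Knockout 5, a change of sign) when 1 library was left out. The summed TPM ratio of 0.170 ran from 0.0857 (without Knockout 1) to 0.276 (without Wild-Type 5) when 1 library was left out. Depth limits Ms4a1, Cr2, Fcer2a, Pax5 and Blk, with 242 to 352 reads each over all libraries; the cause of these shifts was not tested.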
